A study of Mus musculus with 4 samples.

Results

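The replication-dependent histone genes were followed in 4 RNA libraries of the iMOP line, immortalized otic (inner ear) progenitors of the mouse. Their older mouse symbols begin with Hist1h, Hist2h, Hist3h or Hist4h. The deposited tables carry the newer symbols (H4c4 for Hist1h4d, for example), so that 0 gene symbols in them begin with those letters, and the genes were found through the older symbols that RefSeq lists for each gene. RefSeq listed 70 such genes, all 70 were in the tables, and 67 had at least 1 count in any library. These 67 genes, of 23768 genes with at least 1 count, are the members described here: 5 of type H1, 18 of H2A, 19 of H2B, 12 of H3 and 13 of H4. The other members of the family, H1f6 (Hist1h1t), H2ac1 (Hist1h2aa) and H2aw (Hist3h2a), had 0 counts in all 4 libraries.

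The study set proliferating iMOP cells beside neurons derived from them, with 2 libraries per group, numbered 1 and 2, and a wild-type genotype in all 4. The proliferating cells were kept in DMEM/F12 medium with N21 supplement, bFGF, a growth factor, at 20 ng/ml and the antibiotic carbenicillin at 25 µg/ml. The neuron cultures were kept in Neurobasal medium with N21, L-glutamine at 2 mM and K03861 at 1 µM, a compound that inhibits CDK2, a kinase that drives cells into S phase. The cell line is a single immortalized line, and the labels do not say whether the libraries of a group came from separate cultures, so that p-values measure only the spread between these libraries.

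Histone proteins package DNA: H2A, H2B, H3 and H4 form the core of the nucleosome, and H1 binds the DNA that enters and leaves it. Most of the genes lie in dense clusters, are transcribed mainly in S phase, when new DNA needs new histones, and make short mRNAs without introns. These mRNAs end in a conserved stem-loop, bound by the protein SLBP, in place of a poly(A) tail, so that they are seen in libraries made from total RNA after removal of ribosomal RNA, as here. A few of the genes are known to make polyadenylated mRNA as well, mainly in cells that do not divide.

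Of the 67 members, 54 lay on chromosome 13, 10 on chromosome 3, 2 on chromosome 11 and 1 (H4f16, Hist4h4) on chromosome 6. In the mm10 build the chromosome 13 members fell into a group of 24 at chr13:21715711-22043658, a group of 29 at chr13:23531044-23934156, and H2af-ps2 (Hist1h2al), a transcribed pseudogene at chr13:51200084-51203066. The chromosome 3 cluster spanned chr3:96219885-96270192. In all, 3 members are annotated as pseudogenes (H2af-ps2, H2ac14 and H2bu1-ps) and 3 overlap another RefSeq gene (H2bc1, H2bc6 and H2bu2), so that a read there may count for the neighbour.

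The 3′ ends of the mRNAs are shown first, because the stem-loop sets this family apart and differs between its types. The pattern searched was GGNNNTNNNNANNNCC with a 6-base stem whose arms are complementary and a 4-base loop, on the sense strand of the GENCODE M21 transcripts. It was found after the stop codon in 44 of the 67 members, beside 1.35% of 58797 protein-coding transcripts that hold it anywhere. Capitals mark the stem-loop and lower case the flanking bases. Each stretch lies in the exonic 3′ untranslated region, is written as DNA, and was chosen to show each of the commonest forms and the forms of the most abundant members.

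H4c4: caaaGGCCCTTTTCAGGGCCactacc
H4c14: taacGGCCCTTTTTAGGGCCaaccac
H4c11: taaaGGTCCTTTTCAGGACCaccaca
H1f4: caaaGGCTCTTTTCAGAGCCacccac
H2ac20: aaaaGGCTCTTTTTAGAGCCaccaaa
H2bc14: caaaGGCTCTTTTCAGAGCCactaag
H2bc3: caaaGGCTCTTTTAAGAGCCacccac
H3c6: aaacGGCTCTTTTAAGAGCCacctcc
H3c8: taaaGGCTCTTCTTAGAGCCacccat

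The stem separated H4 from the other types. All 12 H4 members with a stem-loop had the arm GGCCCT (10 members) or GGTCCT (2 members), and all 32 members of the other types had GGCTCT (3 H1, 10 H2A, 10 H2B and 9 H3). The commonest whole form, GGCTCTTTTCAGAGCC, was shared by 25 members of H1, H2A, H2B and H3, and the commonest H4 form, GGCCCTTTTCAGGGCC, by 7. The loop began 21 to 58 bases after the stop codon, with a median of 31. The H4c4 stretch lies at chr13:23581946-23581971 on the plus strand, that of H1f4 at chr13:23621776-23621801 on the minus strand, that of H2bc3 at chr13:23747199-23747224 on the plus strand, and that of H3c6 at chr13:23561897-23561922 on the minus strand. Among the rest, 4 members (H2bc4, H2bc21, H2bc23 and H4bc24, the last also an H2B gene, Hist1h2br) had at least 60 bases after the stop codon without the pattern, and 19 had a shorter stretch or no stop codon in the model. Of these 19, 14 had 0 to 2 bases after the stop codon, too few to hold the pattern, H2bc18 (Hist2h2bb) among them, and the 3 pseudogenes had no stop codon. H1f1 had 48 such bases without the pattern, and H3c13 had 37.

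Upstream of the genes, 60 RefSeq promoters (GRCm38.p6) of 59 members were searched on both strands over the 250 bases before the start, and are compared with all 32851 promoters of the same length. TATAAA was found in 46.7% of the members' promoters and 12.4% of all. CCAAT was found in 81.7% and 33.8%, in all 5 H1, all 16 H2A and all 17 H2B promoters, in 8 of 10 H3 promoters, and in 3 of 12 H4 promoters. The octamer ATTTGCAT was found in 20.0% and 1.60%, in 7 of 17 H2B and 5 of 16 H2A promoters and in 0 of the H1, H3 and H4 promoters. H2A and H2B genes often stand head to head and share the stretch between them, so that these promoters are not independent. The last 120 bases before the start are shown for H2bc18 and H4c4, which held the most counts of their types, with the matches in capitals. The H2bc18 stretch is chr3:96269580-96269699 and holds CCAAT and ATTTGCAT, and the H4c4 stretch is chr13:23581448-23581567 and holds CCAAT on the other strand and TATAAA, all on the plus strand of the genome. These matches describe letters in the window and say nothing about a bound factor.

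H2bc18: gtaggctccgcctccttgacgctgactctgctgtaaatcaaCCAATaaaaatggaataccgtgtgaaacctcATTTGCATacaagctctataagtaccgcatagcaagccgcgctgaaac
H4c4: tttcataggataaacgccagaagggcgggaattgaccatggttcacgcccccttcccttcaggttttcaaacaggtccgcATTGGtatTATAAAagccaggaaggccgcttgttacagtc

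Depth limits what can be said of these genes. The libraries held 3150354 and 32913243 counts (proliferating 1 and 2) and 27424909 and 8368169 counts (neuron 1 and 2), of which 88.2% to 98.1% fell on 7 ribosomal RNA and rRNA-like genes. Outside them, 292302, 614465, 3241915 and 617872 counts remained, and levels below are CPM, counts scaled to a common total of these, scaled with edgeR's TMM factors, which set libraries of different composition on 1 scale. A count of 0 allows, at 3 counts, up to 10.3, 4.88, 0.925 and 4.86 CPM before that scaling. Intervals and limits are 95% and cover counting error alone, since reads without molecular identifiers are not independent molecules. The libraries also went against their labels in most markers of division and of neurons. Of 7 markers of dividing cells, 6 were higher in neuron within both numbers and 0 were lower in both. Of 10 neuron markers, 7 were tested. Among these, 6 were lower in neuron within both numbers and 0 were higher in both. Mki67, a marker of dividing cells, had 15 counts in proliferating 1, 97 in proliferating 2, 1947 in neuron 1 and 791 in neuron 2, and Stmn2, a neuron gene, had 24, 78, 36 and 3. The groups are therefore called by their labels. Among 8 otic progenitor markers, Sox2 had 97 to 463 counts per library, Jag1 27 to 353, Eya1 7 to 172 and Dlx5 0 to 184, while Pax2, Pax8 and Gata3 had 0 to 2.

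The members' counts summed to 717 in proliferating 1, 367 in proliferating 2, 21833 in neuron 1 and 441 in neuron 2, which was 0.245%, 0.0597%, 0.673% and 0.0714% of the counts outside ribosomal RNA. The number of members with a count was 59, 26, 67 and 44 of 67 in the same order. The number with at least 10 counts was 18, 5, 63 and 7. On the scaled CPM scale the sums were 2215, 654, 5515 and 882. Both libraries numbered 1 were thus higher than both numbered 2, and within each number the library labelled neuron was the higher. The neuron library was 2.49-fold the proliferating one (exact 95% interval 2.31 to 2.69) in number 1 and 1.35-fold (1.17 to 1.55) in number 2. These ratios compare 2 libraries each. Taken against all counts, ribosomal RNA included, they were 1.81 in number 1 and 2.24 in number 2 on the log2 scale, beside 1.32 and 0.43 here. Between the numbers, proliferating 1 was 3.39-fold proliferating 2 (2.98 to 3.85), and neuron 1 was 6.26-fold neuron 2 (5.69 to 6.89). In bulk samples, fewer cells in S phase and less histone mRNA per cell cannot be told apart.

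**Figure D1:**
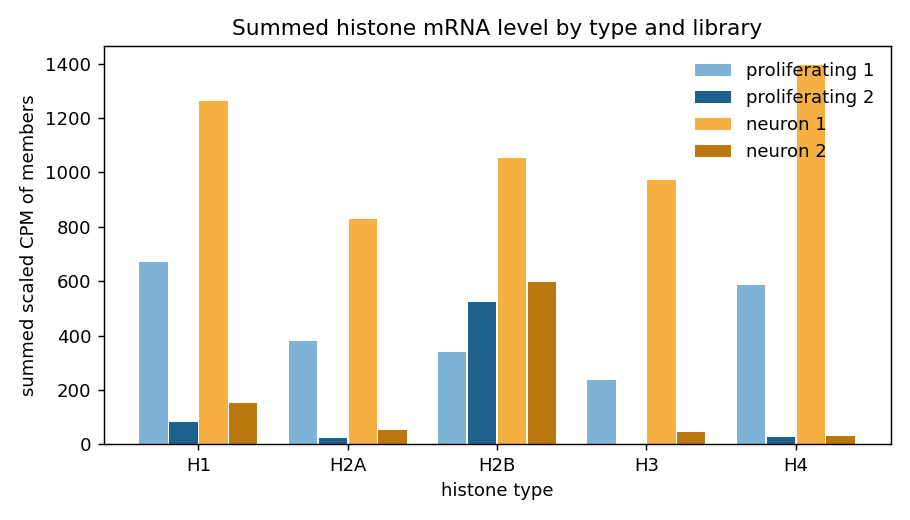
Summed level of the members of each histone type (y axis, TMM-scaled CPM of counts outside ribosomal RNA) in each of the 4 libraries, 1 bar per library. H1, H2A, H3 and H4 stood at 1264, 829, 972 and 1396 CPM in neuron 1 and at 152 CPM or less in both libraries numbered 2, while H2B stood at 340 to 1054 CPM in all 4.

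By type, the summed level of H2B was 522 and 598 CPM in proliferating 2 and neuron 2, where the other types stood at 152 CPM or less. This rested largely on a few genes, picked out after their values were seen. H2bc18 held 67.9% of the H2B counts in proliferating 2 and 68.2% in neuron 2. H2bc3, H2bc4 and H2bc21 had 32, 42 and 11 of the 293 counts in proliferating 2, and 54, 11 and 11 of the 299 in neuron 2. Of the 19 H2B genes, 8 had a count in proliferating 2 and 12 in neuron 2. H2B, which pairs with H2A in the nucleosome core, summed to 340 CPM in proliferating 1, 522 in proliferating 2, 1054 in neuron 1 and 598 in neuron 2. H4, which pairs with H3, summed to 587, 26.7, 1396 and 32.0 CPM, and H3 to 238, 1.78, 972 and 46.0 CPM. H2A summed to 380, 23.2, 829 and 54.0 CPM, and H1, the linker histones, to 670, 80.2, 1264 and 152 CPM. H1, H2A, H3 and H4 were each higher in both libraries numbered 1 than in either numbered 2, and for H2B the libraries of the 2 numbers overlapped. Proliferating 1 over 2 was 21.96-fold (12.98 to 40.0) for H4, 8.36-fold (6.04 to 11.8) for H1 and 0.651-fold (0.518 to 0.813) for H2B. Neuron 1 over 2 was 43.6-fold (26.9 to 76.4) for H4, 8.32-fold (6.63 to 10.6) for H1 and 1.76-fold (1.57 to 1.99) for H2B.

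Neuron over proliferating ran above 1 for each type in both numbers, but the intervals of H2B and H4 in number 2 included 1. In number 1 the ratio was 1.88 for H1 (1.65 to 2.17), 2.18 for H2A (1.82 to 2.63), 3.10 for H2B (2.57 to 3.78), 4.09 for H3 (3.26 to 5.19) and 2.38 for H4 (2.06 to 2.76). In number 2 it was 1.90 for H1 (1.29 to 2.80), 2.33 for H2A (1.16 to 4.92), 1.14 for H2B (0.971 to 1.35) and 1.20 for H4 (0.554 to 2.60). H3 had 1 count in proliferating 2 and 23 in neuron 2, a ratio of 25.8 with an interval of 4.19 to 1063. Whether a type differed between the numbers in its neuron over proliferating ratio was not tested.

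**Figure D2:**
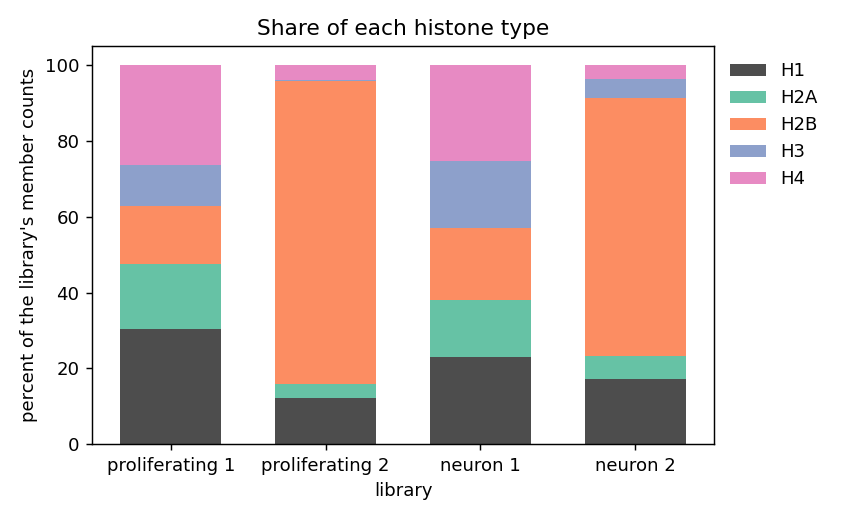
Share of each histone type in the members' counts (y axis, percent) of each library (x axis), as stacked bars that sum to 100%. The H2B share was 15.3% in proliferating 1 and 19.1% in neuron 1, beside 79.8% in proliferating 2 and 67.8% in neuron 2.

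As shares of the members' counts, H2B made up 15.3% (Wilson 95% interval 12.9 to 18.2) in proliferating 1, 79.8% (75.4 to 83.6) in proliferating 2, 19.1% (18.6 to 19.6) in neuron 1 and 67.8% (63.3 to 72.0) in neuron 2. H4 made up 26.5%, 4.09%, 25.3% and 3.63% in the same order, and H3 10.7%, 0.272%, 17.6% and 5.22%. H1 made up 30.3%, 12.3%, 22.9% and 17.2%, and H2A 17.2%, 3.54%, 15.04% and 6.12%. H2B was thus the first of the 5 types in both libraries numbered 2 and the third or the fourth in those numbered 1. A single gene, H2bc18, held 6.97%, 54.2%, 8.32% and 46.3% of the members' counts. Without it, a choice made after its values were seen, H2B had 60, 94, 2357 and 95 counts.

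By chromosome, the chromosome 3 cluster, where H2bc18 lies, held 15.3% (12.9 to 18.1) and 15.2% (14.7 to 15.7) of the members' counts in proliferating 1 and neuron 1. It held 58.3% (53.2 to 63.2) and 49.9% (45.2 to 54.5) in proliferating 2 and neuron 2. The chromosome 13 group of 24 members held 16.04%, 3.54%, 22.4% and 10.2% in the order proliferating 1, proliferating 2, neuron 1 and neuron 2. The group of 29 held 54.3%, 36.5%, 54.1% and 38.8%.

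Among single members, H2bc18, an H2B gene at chr3:96269700-96270192, had 50, 199, 1817 and 204 counts (proliferating 1, proliferating 2, neuron 1, neuron 2), or 154, 355, 459 and 408 scaled CPM. Both neuron libraries were above both proliferating ones, and its log2 fold change was 0.78 (SE 1.02). Per length, as RPKM of the counts outside ribosomal RNA, it was the highest member in proliferating 2 (719) and neuron 2 (827). In proliferating 1 the highest was H1f4 (423 RPKM, beside 313 for H2bc18), and in neuron 1 H4c4 (1078 RPKM, beside 931 for H2bc18).

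The other H2B genes split. H2bc3 (Hist1h2bb, chr13:23746734-23747223) had 5, 32, 277 and 54 counts, or 15.4, 57.0, 70.0 and 108 CPM. Its neuron libraries were both above its proliferating ones, with a log2 fold change of 1.28 (SE 1.05), and it was higher in number 2 within each label. H2bc4 (Hist1h2bc) had 10, 42, 214 and 11 counts, or 30.9, 74.8, 54.1 and 21.99 CPM, so that the groups overlapped (log2 fold change -0.45, SE 1.06). H2bc21 (Hist2h2be) had 5, 11, 47 and 11 counts, or 15.4, 19.6, 11.9 and 21.99 CPM, with both libraries numbered 2 above both numbered 1 (log2 fold change -0.08, SE 1.42). On so few counts that order is not settled. H2bc4 and H2bc21 are known to make polyadenylated mRNA as well, and their models held no stem-loop. H2bc14 (Hist1h2bm), whose model holds the common stem-loop, had 8, 0, 354 and 5 counts, or 24.7, 0, 89.4 and 9.99 CPM, with both libraries numbered 1 above both numbered 2.

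Of the linker histones, H1f4 (Hist1h1e) had 107, 33, 1696 and 47 counts, or 331, 58.8, 428 and 94.0 CPM. Its log2 fold change was 0.44 (SE 1.16), and within the numbers neuron was 1.30-fold (1.07 to 1.59) and 1.60-fold (1.00 to 2.58) proliferating. H1f5 (Hist1h1b) had 15, 4, 866 and 18 counts, or 46.3, 7.13, 219 and 36.0 CPM, and neuron was 4.72-fold (2.85 to 8.47) and 5.05-fold (1.66 to 20.5) proliferating. H1f1 (Hist1h1a) had 16, 5, 1076 and 10 counts, or 49.4, 8.91, 272 and 20.0 CPM. All 3 were higher in neuron than in proliferating within each number. For H1f1 the ratio in number 2 was 2.24, with an interval of 0.699 to 8.37 that included 1. H1f2 (Hist1h1c), which also makes polyadenylated mRNA, had 52, 2, 698 and 0 counts, or 161, 3.56, 176 and 0 CPM. Its log2 fold change was 0.15 (SE 1.69), and it was near or at 0 in both libraries numbered 2.

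Of the H4 genes, H4c4 (chr13:23581568-23581969) had 43, 7, 1715 and 6 counts, or 133, 12.5, 433 and 11.995 CPM. Neuron was 3.26-fold (2.41 to 4.52) proliferating in number 1 and 0.962-fold (0.267 to 3.34) in number 2. H4f16 had 30, 2, 593 and 1 counts, H4c8 (Hist1h4h) 29, 0, 568 and 1, and H4c14 (Hist2h4) 20, 2, 602 and 2. In all 4 of these genes, both libraries numbered 1 were above both numbered 2.

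Of the H3 genes, H3c6 (Hist1h3e) had 27, 0, 1134 and 3 counts, or 83.4, 0, 286 and 6.00 CPM, and H3c11 (Hist1h3i) had 11, 0, 529 and 2 counts. H3c8 (Hist1h3g) had 1, 0, 389 and 1 counts, and neuron 1 was 31.8-fold proliferating 1 with an interval of 5.68 to 1260. H3c1 (Hist1h3a) had 1, 1, 359 and 4 counts. In these 4 genes neuron 1 stood above the other 3 libraries.

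Of the H2A genes, H2af-ps2 had 71, 4, 1212 and 4 counts, or 219, 7.13, 306 and 7.996 CPM, the most of its type. It is a pseudogene whose deposited length is 2983 bases, so that per length it stood at 73.5, 2.39, 103 and 2.68 RPKM. H2ac20 (Hist2h2ac) had 20, 0, 456 and 1 counts, H2ac15 (Hist1h2ak) 7, 0, 455 and 4, and H2ac13 (Hist1h2ai) 6, 0, 289 and 3. In these genes too, both libraries numbered 1 were above both numbered 2.

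Among genes of the family known from the testis, H2bc1 (Hist1h2ba) had 1, 0, 33 and 0 counts, beside the 0 counts of H1f6 and H2ac1. Of the other members known to make polyadenylated mRNA as well, H4f16 (above) was high in both libraries numbered 1 and near 0 in both numbered 2, unlike H2bc4 and H2bc21. H2bc6 (Hist1h2be) had 4, 2, 161 and 6 counts, H2ac18 (Hist2h2aa1) 1, 0, 54 and 1, H2ac19 (Hist2h2aa2) 0, 0, 13 and 0, and H2bu2 (Hist3h2ba) 1, 0, 15 and 0.

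**Figure D3:**
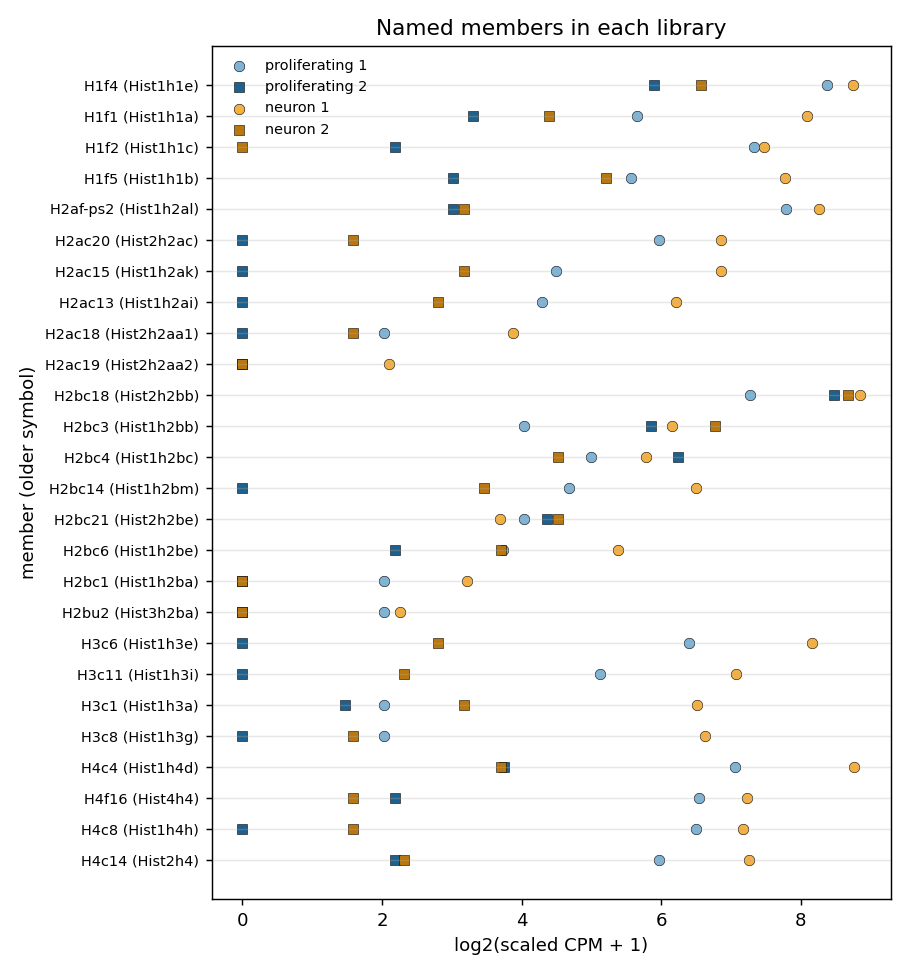
Level of 26 named members, as log2(TMM-scaled CPM + 1) on the x axis, in each of the 4 libraries (circles for number 1, squares for number 2; blue for proliferating, orange for neuron). The squares of H2bc18, H2bc3 and H2bc4 overlap their circles in range and those of H2bc21 lie above, while H3c6 and H4c4 had both squares below both circles.

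Member by member, 62 of 67 were higher in neuron 1 than in proliferating 1 by scaled CPM, where 58.8% of 23761 genes with a count were. Of the 67, 39 had an exact interval wholly above 1 and 0 wholly below, where 7.1% and 9.82% of the 23761 genes did. Detecting a ratio depends on the counts of a gene, which were not matched here. In number 2, 38 were higher in neuron 2, 9 lower and 20 at 0 in both, where 40.6% of all genes were higher. Low counts limit this comparison: 51 of the 67 had 3 counts or fewer in both libraries numbered 2. Of the other 16, 5 had an interval wholly above 1 and 1 (H2bc4, 0.294-fold, 0.136 to 0.581) wholly below, where 24.3% and 19.0% of the 10735 genes with over 3 counts in either of these libraries did.

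Across the replicate numbers most members stood apart in the same direction. Both libraries numbered 1 were above both numbered 2 in 51 of 67 members, where 24.3% of all genes with a count were. The reverse held for 1 member, H2bc21, whose order is not settled by its counts. Number 1 over 2 was 0.788-fold (0.215 to 2.46) in proliferating and 0.540-fold (0.276 to 1.15) in neuron for this gene, and both intervals included 1. Some of the 51 rest on 1 count in proliferating 1, such as H2bc1 (3.09 CPM there). A count of 0 in proliferating 2 allows up to 4.88 CPM before TMM scaling, so that the order of such members is not settled. In the members with at least 5 counts in every library, the mean log2 CPM of number 1 minus that of number 2, less the median of all tested genes, was -1.10 for H2bc3, -0.46 for H2bc21, -0.40 for H2bc18, 0.11 for H2bc4, 2.42 for H1f4, 3.08 for H1f1 and 4.24 for H4c4.

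**Figure D4:**
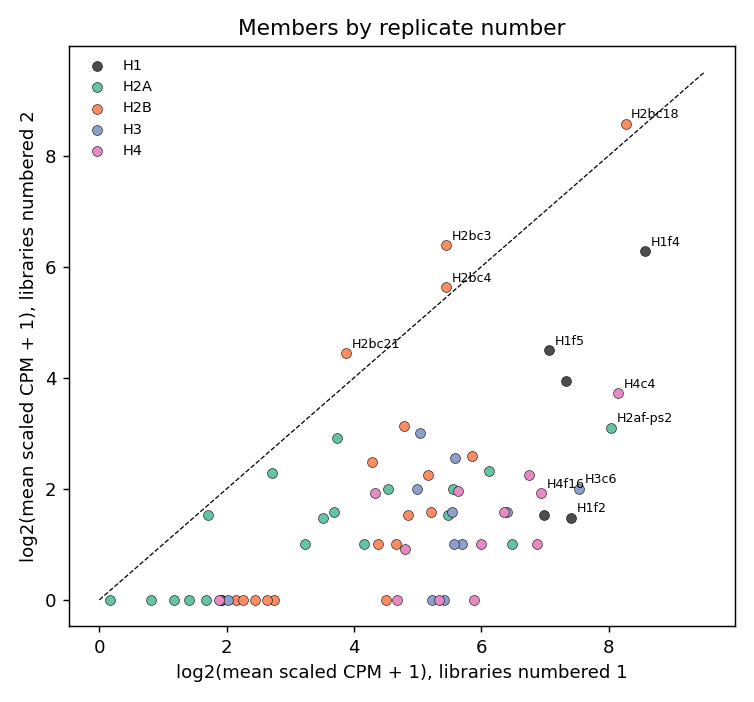
Each of the 67 members as a point, by log2(mean scaled CPM + 1) in the libraries numbered 1 (x axis) and numbered 2 (y axis), coloured by histone type, with the line of equal level dashed. H2bc18, H2bc3, H2bc4 and H2bc21 lie above the line, and H1f4, H4c4 and H3c6 far below.

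Other measures moved with the replicate number. The noncoding RNAs Rn7sk, Rpph1 and Rmrp, which also lack a poly(A) tail, made up 4.78% and 2.37% of the counts outside ribosomal RNA in proliferating 1 and neuron 1, and 0.405% and 0.352% in proliferating 2 and neuron 2. The tested members had a median GC content of 56.0% beside 48.8% for other tested genes. GC was taken from GENCODE models, which for some members are far longer than the deposited length (H1f3, 7425 beside 776 bases, at 39.8% GC). The 1297 other genes at or above 56.0% GC had a median log2 difference between the numbers of 2.78; many of the members had too few counts in the libraries numbered 2 for a value to set beside it. The part of these measures in the members' difference was not tested. Mki67 ran the other way and stood at 46.3 and 492 CPM in proliferating 1 and neuron 1 and at 173 and 1581 CPM in proliferating 2 and neuron 2.

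By stem-loop, the 44 members whose model holds it had 66.8%, 27.0%, 62.2% and 36.7% of the members' scaled CPM in the order proliferating 1, proliferating 2, neuron 1 and neuron 2. The 4 members without it despite 60 bases or more after the stop had 2.23%, 14.4%, 1.44% and 4.99%. In proliferating 2 and neuron 2 their counts came only from H2bc4 (42 and 11) and H2bc21 (11 and 11). H2bc23 and H4bc24 had 0 counts in both of these libraries. H2bc3, whose model holds the stem-loop, had 32 and 54 counts there, so that these shares do not describe a class. The other 19, H2bc18 among them, whose models have under 60 bases after the stop or no stop codon, had the rest.

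In the comparison of the labelled groups, edgeR's quasi-likelihood test with Benjamini-Hochberg adjustment over 9009 genes called 0 genes higher and 0 lower in neuron at an adjusted p of 0.05 (97 genes had an unadjusted p under 0.05, and DESeq2 also called 0, with 190). The count filter let 33 of the 67 members be tested: 5 H1, 4 H2A, 7 H2B, 7 H3 and 10 H4. Of these, 22 had 3 counts or fewer in both libraries numbered 2 and passed through those numbered 1, so that counts and medians over the 33 do not stand for all 67. Of these 33, 0 were called, where 0.0% of all tested genes were called, and 0 had an unadjusted p under 0.05. The log2 fold changes, neuron over proliferating, ran from -0.45 (H2bc4) to 2.63 (H2ac15), with a median of 1.46 beside -0.03 for all tested genes. They were above 0 in 31 of 33 members, beside 48.5% of all tested genes, and below 0 in H2bc4 and H2bc21. Standard errors ran from 1.02 to 2.22, and the lowest p was 0.0892 (H1f5, log2 fold change 2.31, SE 1.25, adjusted p 1.00). Both neuron libraries were above both proliferating ones in 2 of the 33 members (H2bc18 and H2bc3), where this held for 9.41% of all tested genes, and below in 0, where it held for 8.5%. With 2 libraries per group this fit called 0 of all 9009 genes, so that it cannot say whether the members differ between the labelled groups. The spread within a group also held the difference between the replicate numbers. Without neuron 1 the median was -2.55, and without proliferating 2 it was 0.72. Leaving out 1 library also leaves the replicate numbers unequal between the groups, so that these medians mix label and number. Within number 2, which does not include neuron 1, the summed level of the 67 members was 1.35-fold (1.17 to 1.55) in neuron over proliferating. H2bc18 held 199 of the 367 counts in proliferating 2 and 204 of the 441 in neuron 2. It stood at 1.15-fold (0.942 to 1.405), and the other 66 members summed to 1.58-fold (1.29 to 1.94). Of the 67, 51 had 3 counts or fewer in both of these libraries, so that the sum says little of most members.

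Genes that act on histone mRNA showed no call either. In a list of 25 genes of its transcription, 3′ end processing and turnover, 21 were tested and 0 called, with a median log2 fold change of 0.18. Slbp, the stem-loop binding protein, had 6, 17, 160 and 32 counts (1.08, SE 1.07), and Cstf2, a subunit of the cleavage machinery, had 18, 159, 542 and 200 counts (0.66, SE 1.10). Ncbp1, the larger subunit of the cap-binding complex, had 28, 158, 558 and 91 counts (-0.18, SE 1.00). Of 24 histone chaperones and modifiers, 20 were tested and 0 called, with a median of 0.47. Nap1l1, a chaperone of H2A and H2B, had 74, 607, 1448 and 896 counts (0.72, SE 1.24).

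Of a list of 11 histone variants, most of them made throughout the cell cycle from polyadenylated mRNA, all 11 were tested and 0 called, with a median log2 fold change of -0.33. H3f3b, which codes for H3.3, had 145, 385, 1015 and 202 counts (-0.78, SE 1.03), lower in neuron within each number. H3f3a had 78, 212, 986 and 138 counts (-0.23, SE 0.99). H2ax, which is known to make a stem-loop mRNA as well as a polyadenylated one, had 29, 7, 768 and 3 counts (1.02, SE 1.38), with both libraries numbered 1 above both numbered 2. The summed levels of the 11 were 1741, 1665, 1753 and 910 CPM before TMM scaling, beside 597 to 6735 CPM for the members on the same scale.

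Of 24 genes of S phase entry and the replication fork, 20 were tested and 0 called, with a median log2 fold change of 1.31. Of the 20, 16 were higher in neuron within both numbers and 0 were lower in both, beside 27.4% and 27.4% of all tested genes. Mcm6, part of the replicative helicase, had 13, 105, 1004 and 182 counts (1.44, SE 1.07). Pola1, the catalytic subunit of DNA polymerase alpha, had 4, 19, 411 and 232 counts (3.58, SE 1.18), and Pcna, the sliding clamp, had 13, 166, 637 and 119 counts (0.25, SE 1.09). Summed over the 24, the level was 736, 1294, 2981 and 2073 CPM before TMM scaling, with both neuron libraries above both proliferating ones. Over 7 markers of dividing cells it was 253, 713, 1978 and 2853 CPM, and over 10 neuron markers 2610, 2537, 1652 and 1185 CPM. The part of these genes in the members' levels was not tested.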

How the data were processed

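Total RNA was depleted of ribosomal RNA and made into libraries with a stranded kit, per the labels' protocols. The authors deposited raw counts per gene, 1 table of 49997 genes per library. The authors also deposited RPKM values, which are counts scaled by gene length and by the library's total, ribosomal RNA included. HISAT2, SAMtools, featureCounts, DESeq2 and the mm10 build are named in the submitters' processing notes. Versions, the annotation, and the strand and multi-mapping settings are not given in the sources used here. In the median member 49.7% of 50-base windows recur in another member, so that reads could be split between copies or dropped.

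The members and gene lists were chosen with earlier results of these data known. Members were matched through RefSeq synonyms (GRCm38.p6), all 67 were matched to GENCODE M21 transcripts and 59 to a RefSeq promoter. Here 7 genes that hold ribosomal RNA reads were left out, and counts were tested with edgeR 4.0.16 in R 4.3.3 (TMM, filterByExpr by group, quasi-likelihood test, group as the only term, prior count 2 for log values), with limma 3.58.1 and DESeq2 1.42.0 as alternatives. The threshold was an adjusted p of 0.05. The code was tested on simulated data. Ratios of 2 libraries have exact binomial intervals and shares Wilson intervals, at 95%.

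Named members were the 4 with the most counts in each type, testis-type genes, genes also polyadenylated and up to 3 tested members with the largest log2 fold change in each direction (2 were below 0); the lists' named genes were their 2 most abundant and any called in a fit (some are not reported here), and others were named after their values were seen (Slbp, Stmn2, H2ax and the locations shown). RPKM outside ribosomal RNA was recomputed from the counts and the length implied by the deposited values, the same in every library for all 11656 genes checked, within 0.01.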

Additional observations from a re-analysis of the deposited data

How the results depend on the processing

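No histone member was called, higher or lower, under any of the alternatives run on all 4 libraries. In these, 0 to 13 members had an unadjusted p under 0.05. The 13, of 46 tested, came with edgeR, the replicate block and ribosomal RNA genes kept, where 927 of 11525 genes had one. The median log2 fold change of the tested members stayed above 0 under every alternative scaling, filter and test (0.99, with the replicate block and the 10-count filter, to 1.90), but ranged from -2.55 to 8.42 when 1 library was left out. The upper value, without proliferating 1, is fitted on members at 0 in proliferating 2, depends on the prior count and is no bound. Across alternatives the number of members tested was 20 (10 counts in at least 2 libraries) to 67 (no filter), and the median of all tested genes moved to 0.81 with limma on log2(RPKM + 0.1), 0.34 with log2(RPKM + 1) and 0.47 with no filter.

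The labels do not say that the replicate numbers pair the libraries. Libraries with the same number deviated together (correlation of deviations 0.737). With the number as a replicate block, 58 genes were called higher and 29 lower, with 42 and 15 when ribosomal RNA genes were kept and 60 and 38 with the 10-count filter, both chosen after seeing the data. No member was called in these fits. With the block the members' lowest adjusted p was 0.0898 (H1f5), 10 members had an unadjusted p under 0.05 (9.92% of all tested genes), and the median was 1.45. H1f2 turned to -0.20 with the block, -0.049 with ribosomal RNA kept and -0.19 with the 10-count filter.

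With limma on log2(RPKM + 0.1), H1f2 was -0.13, H2bc4 0.66 and H2bc21 0.75, and with log2(RPKM + 1) H2bc4 was 0.57 and H2bc21 0.23. Leaving out 1 library turned the sign of H1f4 (-1.04 to 2.23), H1f1 (-0.50 to 4.11), H1f2 (-8.24 to 4.71), H2af-ps2 (-3.77 to 4.54), H2ac20 (-3.74 to 9.67), H2ac15 (-0.35 to 9.73), H2ac13 (-0.52 to 9.10), H2bc4 (-1.25 to 0.32), H2bc14 (-0.23 to 9.42), H3c6 (-2.71 to 10.97), H3c11 (-1.96 to 9.89), H4c4 (-2.55 to 4.24), H4f16 (-4.39 to 4.49), H4c8 (-4.28 to 9.97), H4c14 (-2.91 to 4.53) and H2bc21 (-0.55 to 0.33), all of them but H2bc4 without neuron 1, while it turned that of H1f5, H2bc18 and H2bc3 under none of the 4. The cause was not tested.

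Summed as RPKM, which weighs short mRNAs more, the share in the members' level moved for H1 to 23.6% in proliferating 1, 8.81% in proliferating 2, 16.7% in neuron 1 and 12.2% in neuron 2, for H2A to 10.9% in proliferating 1 and 11.8% in neuron 1, for H2B to 20.4% in neuron 1, for H3 to 16.6% in neuron 1, for H4 to 38.3% in proliferating 1 and 34.5% in neuron 1. Without the member with the most counts in the type, the share in the members' level moved for H1 to 18.03% in proliferating 1, 3.59% in proliferating 2, 16.4% in neuron 1 and 7.36% in neuron 2, for H2A to 8.05% in proliferating 1 and 10.04% in neuron 1, for H2B to 8.996% in proliferating 1, 55.95% in proliferating 2, 11.8% in neuron 1 and 40.1% in neuron 2, for H3 to 7.25% in proliferating 1 and 13.1% in neuron 1, for H4 to 21.8% in proliferating 1, 2.22% in proliferating 2 and 18.9% in neuron 1. The log2 ratio of the summed level, neuron over proliferating, was 1.32 in number 1 and 0.43 in number 2. In number 1 it was 1.46 without TMM factors, 1.81 against all counts, 1.90 as summed RPKM and 1.48 without each type's top member. In number 2 it was 0.26 without TMM factors, 2.24 against all counts, 2.25 as summed RPKM and 0.68 without each type's top member. Low counts limit the libraries numbered 2 and proliferating 1, where most members had fewer than 10 counts.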

Other observations

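H2A and H2B genes that stand head to head were set side by side. In 12 such pairs, 11 on chromosome 13 and 1 on chromosome 3, the genes lay 164 to 268 bases apart. In the pair H2ac15 and H2bc15 both partners were low in the libraries numbered 2: H2ac15 had 7, 0, 455 and 4 counts (proliferating 1, proliferating 2, neuron 1, neuron 2) and H2bc15 had 5, 0, 223 and 2. In the pair H2ac6 and H2bc4 the partners differed. H2ac6 had 0, 1, 44 and 3 counts, while H2bc4, which also makes polyadenylated mRNA, had 10, 42, 214 and 11. The chromosome 3 pair differed too, with 20, 0, 456 and 1 counts for H2ac20, whose model holds the stem-loop, and 5, 11, 47 and 11 for H2bc21, whose model lacks it. The models of H2bc23 and H4bc24 lack it as well. They and their partners, H2ac23 and H2ac24, had 0 counts in both libraries numbered 2. H2bc12, whose model holds it, had 3, 4, 110 and 1 counts beside 3, 0, 57 and 2 for its partner H2ac12. These pairs were picked out after their values were seen, and no difference between partners was tested.

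Without H2bc18, H2bc3, H2bc4, H2bc21 and H1f4, a choice made after seeing the data, the other 62 members had 540, 50, 17782 and 114 counts. Their summed level was 2.69-fold (2.47 to 2.94) in neuron over proliferating in number 1 and 2.56-fold (1.82 to 3.64) in number 2. Over all 67 it was 2.49-fold and 1.35-fold. The genes left out held most of the members' counts in both libraries numbered 2. The closeness of the ratios of the 62 may thus follow from the choice, and they are given as a description with no test.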
